A study of Mus musculus with 6 samples.

Results

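The genes described here build fatty acids from carbohydrate in brown adipose tissue (BAT), and include the transcription factors that control them. The 10 genes were Acly, Acaca, Acacb, Fasn, Me1, Acss2, Thrsp, Mlxipl, Srebf1 and Mcat, out of 18193 genes that the array annotation named by 1 symbol. They were chosen by name for their role in the pathway, with earlier results of these data known. All probe sets that carried 1 of these symbols and no other were taken, 22 in all, and 1 further probe set that named Acss2 together with another gene was left out. A probe set is a group of short oligonucleotides on the array that together measure 1 transcript.

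The samples were BAT from 3 KRAP-deficient mice (KO 1 to 3) and 3 wild-type mice (WT 1 to 3), which formed 3 littermate pairs, KO 1 with WT 1 and so on. The KO animals carried a KRAP allele in which part of the coding region had been replaced by a neomycin resistance cassette, in every tissue and from conception, and the WT animals carried the intact gene. KRAP is a protein that associates with the actin cytoskeleton. The mutant line had been backcrossed to C57BL6/J, all 6 mice were 32 weeks old and fed normal chow, and each array held the RNA of 1 animal, so that the spread between arrays includes that between animals.

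De novo lipogenesis starts from citrate that leaves the mitochondrion. ATP citrate lyase (Acly) cleaves it to acetyl-CoA in the cytosol, acetyl-CoA synthetase 2 (Acss2) makes acetyl-CoA from acetate, the carboxylases Acaca (ACC-1) and Acacb (ACC-2) form malonyl-CoA, and fatty acid synthase (Fasn) joins these units with NADPH, part of which comes from malic enzyme 1 (Me1). The transcription factors ChREBP (Mlxipl), which responds to glucose metabolites, and SREBP-1 (Srebf1), which responds to insulin, raise transcription of these enzymes. BAT is known to run fatty acid synthesis and fatty acid burning side by side.

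The letters before the transcription start of 5 of these genes are shown because the enzyme genes among them read lower in KO together or, for Fasn, parted by littermate pair, and because ChREBP is their regulator. Of the 10 genes, 9 matched the RefSeq promoter table of mouse build GRCm38.p6, with 13 entries, and Mcat did not. Each sequence below holds the 150 bases before an annotated start, read 5′ to 3′ on the strand of the gene. Capitals mark matches, on either strand, to 4 motifs. These are the E-box CACGTG, which reads the same on both strands, the CCAAT box (CCAAT or ATTGG), the GC box (GGGCGG or CCGCCC), and a sterol response element (TCACNCCAC or GTGGNGTGA).
Acly, chr11:100528001-100528150, minus strand: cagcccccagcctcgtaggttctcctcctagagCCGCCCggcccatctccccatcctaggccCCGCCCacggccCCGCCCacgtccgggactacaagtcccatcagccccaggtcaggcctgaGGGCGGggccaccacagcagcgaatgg
Acss2, chr2:155517893-155518042, plus strand: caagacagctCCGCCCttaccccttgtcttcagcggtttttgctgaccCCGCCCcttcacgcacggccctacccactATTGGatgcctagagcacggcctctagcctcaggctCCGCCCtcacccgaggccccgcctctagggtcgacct
Me1, chr9:86695915-86696064, minus strand: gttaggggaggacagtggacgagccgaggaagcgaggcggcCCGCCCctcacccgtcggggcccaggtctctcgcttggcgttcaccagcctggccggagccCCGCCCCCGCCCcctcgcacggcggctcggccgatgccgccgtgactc
Fasn, chr11:120824548-120824697, minus strand: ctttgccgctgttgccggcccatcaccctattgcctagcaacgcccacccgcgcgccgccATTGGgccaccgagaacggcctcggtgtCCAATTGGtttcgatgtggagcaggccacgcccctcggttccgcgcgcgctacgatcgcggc
Mlxipl, chr5:135089740-135089889, plus strand: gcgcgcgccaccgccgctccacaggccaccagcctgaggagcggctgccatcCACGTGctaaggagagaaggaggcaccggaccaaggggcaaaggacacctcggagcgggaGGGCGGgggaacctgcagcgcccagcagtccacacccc

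The Acly window held 4 GC boxes and the Acss2 window 3 GC boxes and 1 CCAAT box. The Me1 window held 3 GC boxes, of which the last 2 adjoin without a gap. The Fasn window held no GC box and 3 CCAAT boxes, of which the last 2 lie on opposite strands and share their letters AT. The Mlxipl window held 1 E-box, which began at position -98 counted back from the start, and 1 GC box. None of the enzyme windows shown held an E-box. Of 32851 promoter windows of the same length in the table, 28.6% held a GC box, 24.5% a CCAAT box, 4.30% an E-box and 0.639% the sterol response element. Among these genes, the sterol response element was found only in a further annotated window of Mlxipl. The Acaca window, a further annotated window of Me1 and an annotated window of Srebf1 held none of the 4 motifs. These matches describe the letters, and binding was not measured.

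Signals are given as multiples of the median signal of their own array, since the array medians differed between 16.5 and 20.4 intensity units. Tests covered the 22356 of 45037 probe sets whose signal, averaged over the 6 arrays, exceeded 1, and 18 of the 22 lipogenesis probe sets were among them. Differences are log2 of KO minus log2 of WT from a limma fit with the littermate pair as a term, and p-values were adjusted over all 22356 probe sets. The precision is limited by having 3 arrays in each group.

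The arrays were examined before the comparison. On the array of WT 2, unlike the rest, the 3′ to 5′ signal ratio of the actin control was 3.80, against 1.91 to 2.58 on the other 5 arrays, and the mean signal of 18S ribosomal RNA was 1202, against 63.0 to 123 intensity units. A higher 3′ to 5′ ratio means that less of the 5′ end of the transcript was labelled. All 9 brown adipocyte markers were above the array median on average, and their summed signal was 1869 to 2522 in KO and 1874 to 2514 in WT. The summed signal of 8 skeletal muscle markers was 39.4, 699.6 and 21.3 in KO 1 to 3, against 91.7, 63.9 and 278 in WT 1 to 3, and that of 4 measured liver markers of the 5 listed was 1.498, 1.77 and 48.6 in KO 1 to 3, against 0.921, 0.846 and 1.20 in WT 1 to 3. Of the liver markers, albumin (Alb) read 28.5 in KO 3 and at most 1.18 on any other array. Of 5 endothelial markers, 3 were lower in KO in every pair, with a summed signal of 35.3 to 37.1 in KO and 35.7 to 50.9 in WT. Of 4 measured white adipocyte markers, 3 were lower and 1 was higher in KO in every pair, with a summed signal of 50.9 to 89.4 in KO and 45.8 to 72.5 in WT. Over all tested probe sets, 18.4% were lower and 12.4% higher in KO in every pair. The part of RNA quality and of these cell types in the differences below was not tested, and each difference of the 10 genes is therefore also given as its lowest and highest value with 1 littermate pair left out. In a bulk tissue, fewer cells of a type and less RNA per cell cannot be told apart. KRAP itself is named Itprid2 on the array, and its probe set gave 47.0, 35.1 and 41.4 for KO 1 to 3, against 55.3, 56.6 and 42.2 for WT 1 to 3 (log2 difference -0.32, 95% interval -0.83 to 0.20, limma adjusted p = 0.720), and its position relative to the deleted part is not known, so it does not check the genotype labels.

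Among the lipogenesis genes, those for acetyl-CoA supply (Acly and Acss2), the cytosolic carboxylase (Acaca), NADPH supply (Me1) and ChREBP (Mlxipl) had lower signals in KO than in WT, and no difference passed the adjusted test. By the brightest probe set of each gene, Mlxipl, Acaca, Acss2, Me1 and Acly were lower in KO in 3 of 3 pairs, by 1.88-fold, 1.75-fold, 1.68-fold, 1.57-fold and 1.45-fold on average. After division by the array median, Fasn, Acacb and Thrsp were lower in KO in pairs 1 and 2 and higher in pair 3. For Fasn and Acacb the direction in pair 3 depended on the scaling. As deposited, their pair 3 log2 differences were -0.143 and -0.019, and after quantile normalization -0.148 and 0.035. Srebf1 was higher in KO in pair 1 only, and Mcat, which serves the separate mitochondrial pathway, had almost equal means in the groups. None of the 18 probe sets passed an adjusted p of 0.05 (0 of 18, and 0% of all 22356 tested), with limma adjusted p-values between 0.396 and 0.992.

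**Figure D1:**
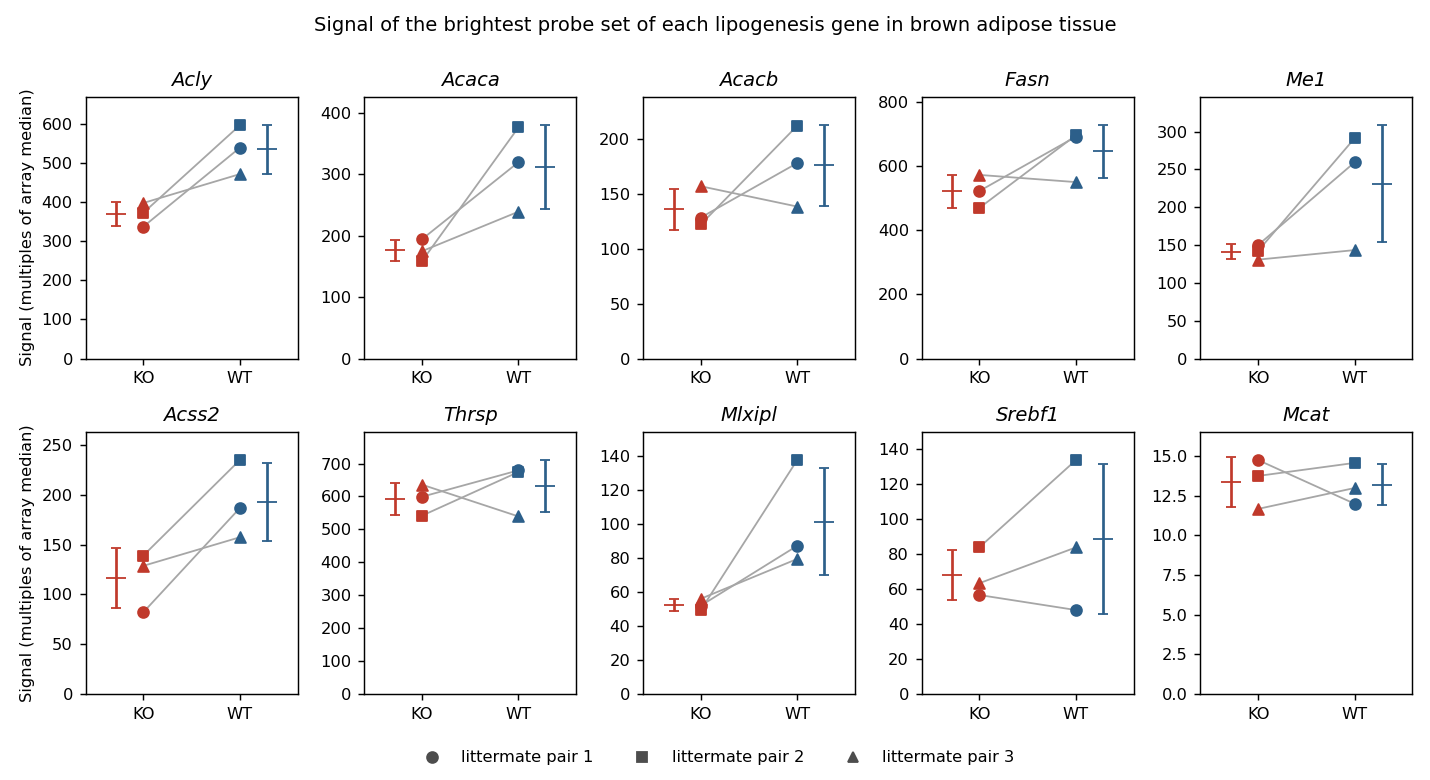
Signal of the brightest probe set of each of the 10 genes, in multiples of the array median, in KO (red, left) and WT (blue, right) mice. Grey lines join littermates, and horizontal ticks with bars are the mean ± SD of 3 arrays. The KO and WT points do not overlap for Acly, Acaca, Acss2 and Mlxipl, and the lines of Fasn, Acacb and Thrsp run the other way in pair 3. In the signals as deposited, Fasn and Acacb were lower in KO in pair 3 too.

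Acly, the source of most cytosolic acetyl-CoA, was measured by 3 probe sets that passed the filter. The brightest, 1451666_at, read 337, 372 and 397 in KO 1 to 3, against 538, 596 and 471 in WT 1 to 3, so that every KO array lay below every WT array. The means were 369 ± 30.4 in KO and 535 ± 62.4 in WT (SD, n = 3 each), a log2 difference of -0.53 (95% interval -1.02 to -0.05, limma adjusted p = 0.554; -0.68 without pair 3 to -0.46 without pair 2). Probe set 1425326_at showed the wider gap, with 96.2, 115 and 113 in KO 1 to 3, against 221, 243 and 163 in WT 1 to 3. Its KO to WT ratio was 0.435, 0.471 and 0.694 in pairs 1 to 3, and the log2 difference was -0.94 (95% interval -1.46 to -0.42, limma adjusted p = 0.406; -1.14 without pair 3 to -0.81 without pair 1, and -0.86 without pair 2). Probe set 1439459_x_at, of a class that can also bind related transcripts, read 175, 266 and 274 in KO 1 to 3, against 299.5, 417 and 321 in WT 1 to 3, also without overlap (log2 difference -0.55, limma adjusted p = 0.547; -0.71 without pair 3 to -0.44 without pair 1). The remaining 3 Acly probe sets were dim, at 0.00125 to 1.55 on the 6 arrays, with 1 to 5 of the 6 signals of each below the floor of 0.25, and were not tested.

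Acss2, which captures acetate for the same acetyl-CoA pool, read 82.1, 139 and 129 in KO 1 to 3, against 187, 235 and 157 in WT 1 to 3, with probe set 1422479_at. The groups did not overlap, and KO 1 was the lowest array. The means were 117 ± 30.4 in KO and 193 ± 39.2 in WT (SD, n = 3 each), a log2 difference of -0.74 (95% interval -1.31 to -0.18, limma adjusted p = 0.486; -0.97 without pair 3 to -0.52 without pair 1). Probe set 1422478_a_at was lower in KO in every pair with overlapping groups, at 60.1, 121 and 106 in KO 1 to 3, against 132, 155 and 116 in WT 1 to 3 (log2 difference -0.54, limma adjusted p = 0.625; -0.74 without pair 3 to -0.24 without pair 1). The dim probe set 1446542_at read 0.868, 2.47 and 2.47 in KO 1 to 3, against 1.38, 5.47 and 5.92 in WT 1 to 3. Its adjusted p was the lowest of the lipogenesis probe sets (log2 difference -1.02, 95% interval -1.53 to -0.52, limma adjusted p = 0.396; -1.20 without pair 1 to -0.91 without pair 3). It was also the only 1 of the 18 at least 1.5-fold lower in KO in all 3 pairs, the rule that the methods of the study used, which 0.819% of all tested probe sets met in that direction.

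Acaca encodes the cytosolic carboxylase whose malonyl-CoA feeds fatty acid synthase. Its bright probe set 1434185_at read 194, 159 and 175 in KO 1 to 3, against 319.8, 377 and 239 in WT 1 to 3. The groups did not overlap, with means of 176 ± 17.8 in KO and 312 ± 69.0 in WT (SD, n = 3 each). The KO to WT ratio was 0.608, 0.422 and 0.731 in pairs 1 to 3, and the log2 difference was -0.81 (95% interval -1.35 to -0.26, limma adjusted p = 0.449; -0.98 without pair 3 to -0.59 without pair 2). A dimmer Acaca probe set, 1427595_at, did not share this order. It read 12.0, 7.73 and 8.07 in KO 1 to 3, against 15.5, 5.62 and 11.2 in WT 1 to 3, with WT 2 lowest of the 6 arrays (log2 difference -0.13, 95% interval -0.72 to 0.47, limma adjusted p = 0.928; -0.42 without pair 2 to 0.05 without pair 3).

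Acacb encodes the carboxylase at the mitochondrial surface, whose malonyl-CoA restrains entry of fatty acids into the mitochondrion. It read 128, 122 and 157 in KO 1 to 3, against 178, 212 and 138 in WT 1 to 3, so that the groups overlapped. The KO to WT ratio was 0.721 and 0.576 in pairs 1 and 2 and 1.13 in pair 3. The log2 difference was -0.36 (95% interval -0.95 to 0.22, limma adjusted p = 0.719; -0.63 without pair 3 to -0.15 without pair 2). In the signals as deposited, before division by the array median, the pair 3 ratio was 0.987. A second Acacb probe set was near the floor on all arrays, at 0.0508 to 0.456, and was not tested.

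Fasn, the synthase itself, read 522, 469 and 572 in KO 1 to 3, against 691, 696 and 549.5 in WT 1 to 3. KO 1 and KO 2 lay below all WT arrays and KO 3 lay above WT 3. The means were 521 ± 51.3 in KO and 645 ± 83.0 in WT (SD, n = 3 each), a log2 difference of -0.31 (95% interval -0.81 to 0.20, limma adjusted p = 0.731; -0.49 without pair 3 to -0.17 without pair 2). In pair 3 the direction turned with the scaling, at a KO to WT ratio of 1.04 after division by the array median and 0.906 as deposited. The Fasn signals stood at 59.4% to 75.9% of the highest signal on their array.

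Me1 makes cytosolic NADPH for the synthase, and its 2 probe sets gave like values. Probe set 1430307_a_at read 150.1, 142 and 131 in KO 1 to 3, against 259, 291 and 143 in WT 1 to 3, and 1416632_at read 139, 156 and 132 in KO 1 to 3, against 205, 329.7 and 153 in WT 1 to 3. WT 3 lay within the KO range for both, while WT 1 and WT 2 lay above it. The log2 differences were -0.65 (95% interval -1.22 to -0.08, limma adjusted p = 0.538; -0.91 without pair 3 to -0.46 without pair 2) and -0.62 (95% interval -1.17 to -0.07, limma adjusted p = 0.547; -0.82 without pair 3 to -0.39 without pair 2).

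Thrsp (Spot 14) is a small protein of lipogenic tissues whose transcript follows thyroid hormone and carbohydrate feeding. Its brightest probe set, 1424737_at, read 599, 542 and 636 in KO 1 to 3, against 679, 674 and 539 in WT 1 to 3, with overlapping groups and at 67.3% to 73.6% of the highest signal on the array. The log2 difference was -0.09 (95% interval -0.58 to 0.41, limma adjusted p = 0.942; -0.25 without pair 3 to 0.03 without pair 2). Probe set 1422973_a_at was also lower in KO in pairs 1 and 2 and higher in pair 3, with 372, 385 and 439.8 in KO 1 to 3, against 482, 515 and 406 in WT 1 to 3 (log2 difference -0.23, limma adjusted p = 0.815; -0.40 without pair 3 to -0.13 without pair 2), and as deposited its pair 3 ratio was 0.943, below 1. Another, dim probe set, 1444166_at, read 0.981 to 1.63 in KO and 0.974 to 1.83 in WT (log2 difference -0.03, limma adjusted p = 0.992; -0.36 without pair 3 to 0.33 without pair 2).

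The regulators differed in pattern. Mlxipl, which encodes ChREBP, read 52.0, 49.4 and 56.1 in KO 1 to 3, against 87.3, 138 and 79.5 in WT 1 to 3. The KO arrays lay close together and below all WT arrays, among which WT 2 was highest. The means were 52.5 ± 3.35 in KO and 102 ± 31.6 in WT (SD, n = 3 each), with a KO to WT ratio of 0.596, 0.359 and 0.705 in pairs 1 to 3. The log2 difference was -0.91 (95% interval -1.50 to -0.32, limma adjusted p = 0.440; -1.11 without pair 3 to -0.63 without pair 2). Srebf1 read 56.6, 83.9 and 63.4 in KO 1 to 3, against 48.0, 134 and 83.8 in WT 1 to 3. Here WT 1 was the lowest and WT 2 the highest array, and the KO arrays lay between them (log2 difference -0.28, 95% interval -0.85 to 0.29, limma adjusted p = 0.791; -0.54 without pair 1 to -0.08 without pair 2). Whether the Mlxipl and Srebf1 effects differ was not tested.

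Mcat loads malonyl groups onto the mitochondrial acyl carrier protein, in a pathway that makes the precursor of lipoic acid. It read 14.8, 13.8 and 11.7 in KO 1 to 3, against 12.0, 14.6 and 13.0 in WT 1 to 3. The means were 13.4 ± 1.57 in KO and 13.2 ± 1.30 in WT (SD, n = 3 each), with a log2 difference of 0.02 whose 95% interval ran from -0.46 to 0.50 (limma adjusted p = 0.991; -0.12 without pair 1 to 0.11 without pair 3). The interval leaves room for a difference as large as that of Fasn in either direction.

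**Figure D2:**
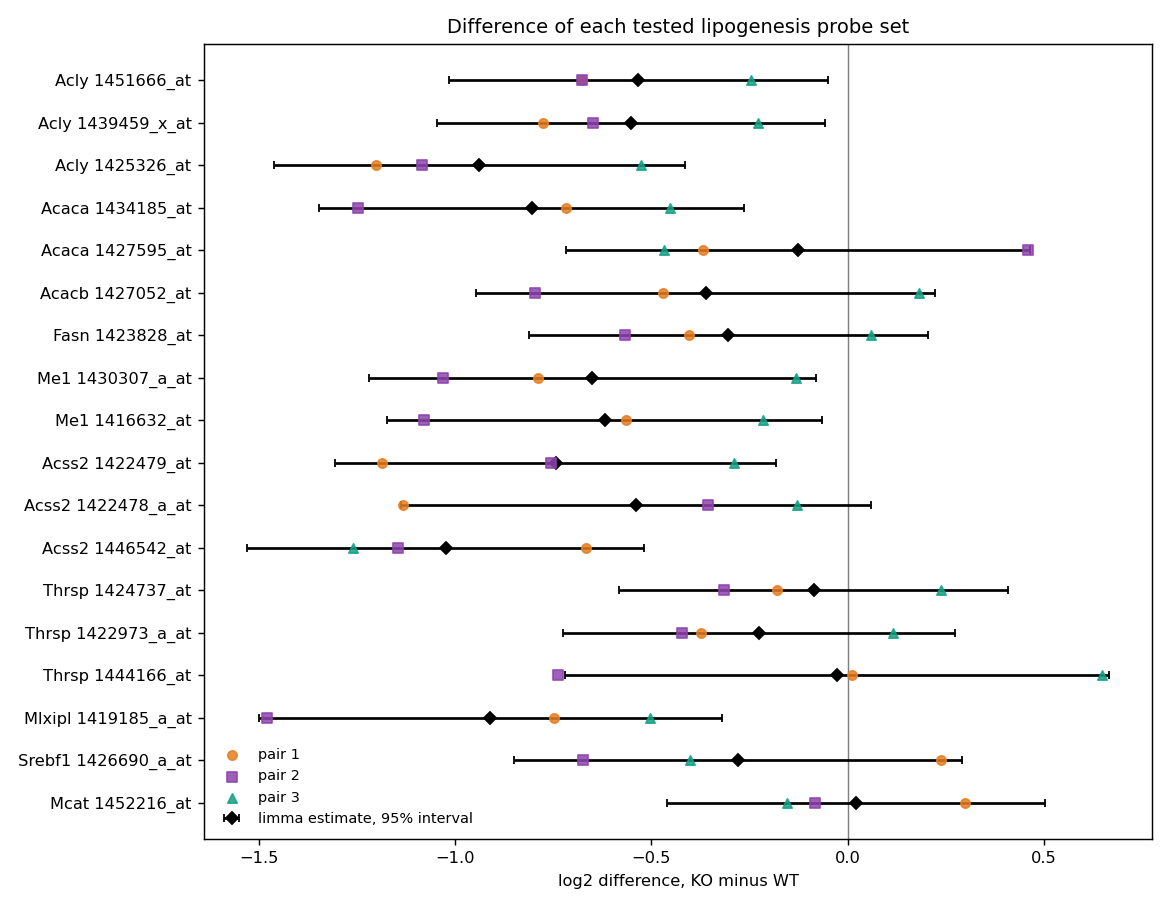
Log2 difference, KO minus WT, of the 18 tested lipogenesis probe sets. Coloured points are the 3 littermate pairs, and black diamonds with bars are the limma estimate and its 95% interval. In 10 probe sets all 3 pairs lie left of 0, and the pair 2 point is the leftmost of the pairs for Acaca 1434185_at, Mlxipl and both Me1 probe sets, among others.

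The 18 probe sets were then counted together and read against all probe sets tested, with the caution that they cover only 10 genes and that probe sets of 1 gene share a transcript. The genes were also chosen with earlier results of these data known, so an excess in these counts is a description and not a test. KO was below WT in all 3 pairs in 10 of 18, against 18.4% of all tested probe sets, and above WT in all 3 pairs in 0 of 18, against 12.4%. Every KO signal lay below every WT signal in 6 of 18, against 7.16%, namely in 3 probe sets of Acly and 1 each of Acaca, Acss2 and Mlxipl. An unadjusted limma p under 0.05 with a lower signal in KO was found in 9 of 18, against 5.14%. Without pair 2, KO was lower in both remaining pairs in 11 of 18 (24.8% of all), the remaining 4 arrays did not overlap in 8 of 18 (13.0%), and 4 of 18 had an unadjusted limma p under 0.05 (3.30%). These 4 were Mlxipl, Acly 1425326_at, Acaca 1434185_at and Acss2 1446542_at. By gene, the median log2 difference was -0.45 over the 10 genes and -0.07 over all 11140 genes tested. In pairs 1 to 3 the median over the 10 genes was -0.57, -0.72 and -0.20, and that over all genes tested was -0.03, -0.24 and 0.06, so the lipogenesis genes lay below the general level in each pair and least so in pair 3. A different scaling moved the general level of single pairs. The median over all probe sets in pairs 1 to 3 was -0.03, -0.19 and 0.06 after division by the array median and 0.08, 0.09 and -0.14 in the signals as deposited.

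WT 2 was the highest of the 6 arrays in 14 of the 18 lipogenesis probe sets, and in 30.5% of all tested probe sets. Averaged over the 10 genes, each centred on its own mean over the arrays, the log2 signal was -0.28, -0.23 and -0.19 in KO 1 to 3, against 0.18, 0.54 and -0.02 in WT 1 to 3. The KO arrays therefore lay within 0.10 of each other and the WT arrays were spread over more than 0.50, with WT 3 nearest to KO. Across the 6 arrays, the signal of each gene was set against the mean of the other 9 as a description. Pearson's r was 0.976 for Mlxipl, 0.943 for Acly, 0.918 for Acaca, 0.895 for Acacb, 0.870 for Me1, 0.843 for Acss2 and 0.841 for Fasn, and lower for Thrsp (0.589), Srebf1 (0.416) and Mcat (0.073). These coefficients rest on 6 arrays that share the genotype difference and the high WT 2 array.

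**Figure D3:**
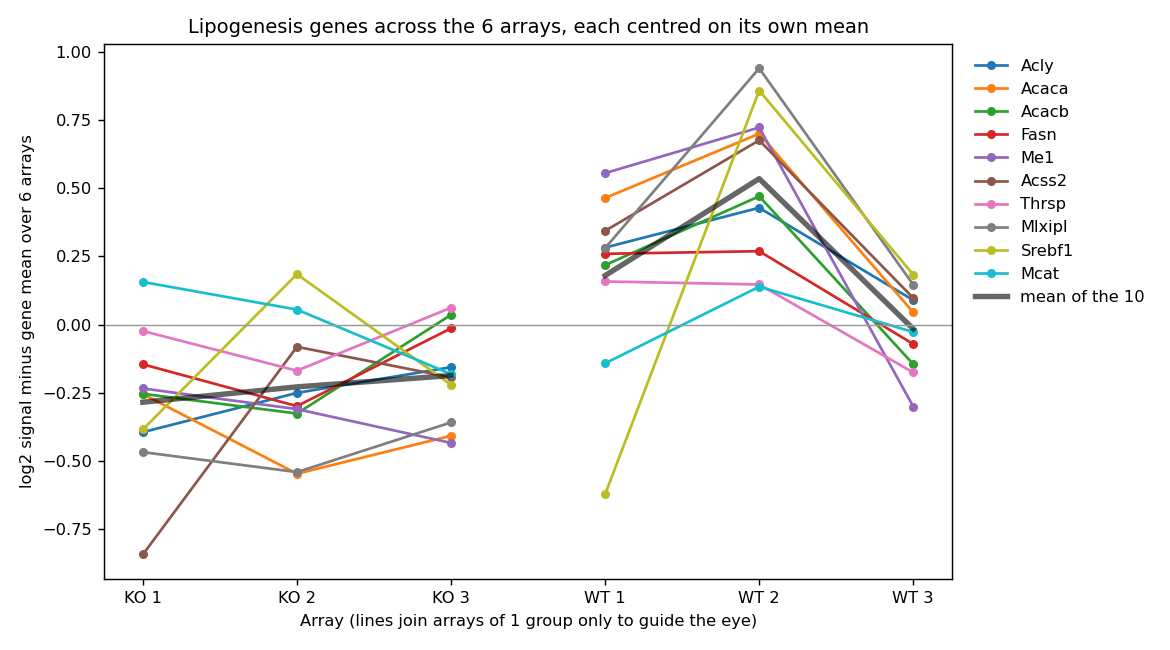
Log2 signal of each of the 10 genes on the 6 arrays, centred on the mean of the gene, with their average as a thick line. Lines within a group only guide the eye, since animals have no order. The average is -0.28, -0.23 and -0.19 for KO 1 to 3, against 0.18, 0.54 and -0.02 for WT 1 to 3, and Srebf1 and Mcat leave the common course in pair 1.

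The genes outside the list whose signals followed the average of the 10 most closely over the 6 arrays were Sec14l1 (Pearson's r = 0.998), Gmfb (0.997), Smad2 (0.997), Adipor2 (0.996) and Lgals12 (0.995). Adipor2 encodes a receptor for adiponectin, and Lgals12 encodes a galectin of adipocyte lipid droplets. Lgals12 read 20.9, 21.4 and 21.9 in KO 1 to 3, against 34.8, 46.3 and 27.3 in WT 1 to 3, a log2 difference of -0.72 (limma adjusted p = 0.486). Adipor2 read 104, 109.6 and 117 in KO 1 to 3, against 144, 179.8 and 129 in WT 1 to 3, with a log2 difference of -0.44 (limma adjusted p = 0.633). The log2 difference was -0.351 for Sec14l1, -0.435 for Gmfb and -0.272 for Smad2. All the genes named here were chosen for following an average that was itself lower on every KO array than on every WT array. Their lower signals in KO follow from that choice, so these differences and adjusted p-values are not separate findings. The best match among 11140 genes over 6 arrays is a description and was not tested.

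Neighbouring steps of the pathway were examined in 6 lists of genes, each gene by its brightest probe set. The lists held 9 to 15 genes each, of which 8 to 14 were measured. In none of the lists did a gene pass the adjusted test. The list counts below stand against 2195 genes lower and 1214 higher in KO in every pair, of all 11140 genes tested. In the list of citrate and NADPH supply, 1 of 10 measured genes was lower in KO in every pair and 2 were higher, with a median log2 difference of -0.06. The lower gene was Pgd, a dehydrogenase of the pentose phosphate pathway that makes NADPH, at 139, 149 and 139 in KO 1 to 3, against 226, 324 and 193 in WT 1 to 3 (log2 difference -0.76, limma adjusted p = 0.444), and its 4 probe sets ranged from -1.02 to -0.76. The mitochondrial acetyl-CoA synthetase Acss1 read 58.1, 65.9 and 73.7 in KO 1 to 3, against 47.7, 48.4 and 51.8 in WT 1 to 3 (log2 difference 0.41, limma adjusted p = 0.619), but its other probe set gave -0.97 with pairs in both directions.

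The next list held 11 measured genes, which apart from Aacs activate, elongate or desaturate fatty acids after Fasn. Of these 11, 5 were lower in KO in every pair and 0 higher, with a median of -0.41. In pairs 1 to 3 the median of this list was -0.63, -0.59 and -0.03. Scd2, a stearoyl-CoA desaturase, read 21.2, 123 and 119.7 in KO 1 to 3, against 133, 301 and 179 in WT 1 to 3. Its log2 difference was -1.51 (95% interval -2.43 to -0.59, limma adjusted p = 0.425), -0.94 without pair 1 and -1.97 without pair 3, and its 3 probe sets ranged from -1.51 to -1.42. Aacs, which makes acetoacetyl-CoA in the cytosol, read 17.1, 24.4 and 24.9 in KO 1 to 3, against 37.7, 60.1 and 28.8 in WT 1 to 3 (log2 difference -0.88, limma adjusted p = 0.473, and -0.68 for its other probe set).

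**Figure D4:**
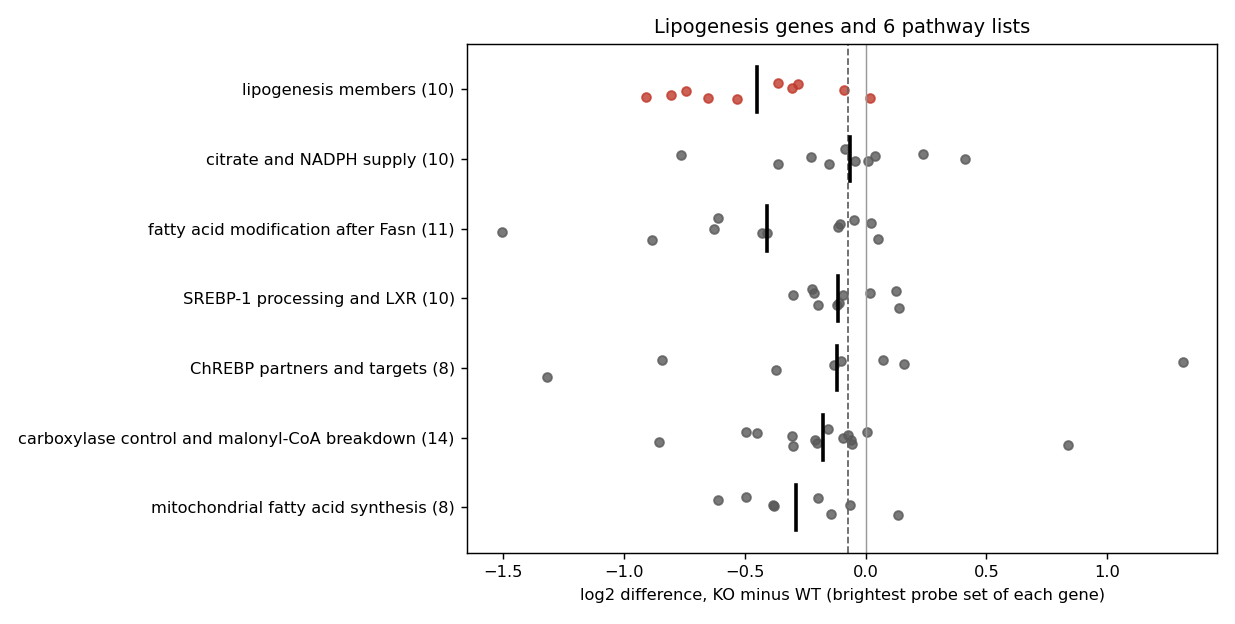
Log2 difference, KO minus WT, of the 10 lipogenesis genes (red) and of the genes of 6 pathway lists (grey), each by its brightest probe set, with the number of measured genes in brackets. Black bars are list medians, at -0.45 for the lipogenesis genes and -0.41 for fatty acid modification, and the dashed line is the median of all genes tested at -0.07. The ChREBP list includes Tkfc, which passed the filter only through WT.

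By the median log2 difference, the lists on the regulators lay closer to the general level than the list after Fasn. This did not hold in every pair. In pair 3 the median of the ChREBP list, with Tkfc included, was -0.18, against -0.03 for the list after Fasn and 0.06 over all genes tested. Of 10 measured genes in the list on SREBP-1 processing and the LXR pathway, which also holds Srebf2, 1 was lower in KO in every pair and 0 higher, with a median of -0.11. That gene was Srebf2, at 3.04, 3.34 and 3.29 in KO 1 to 3, against 3.72, 3.75 and 3.60 in WT 1 to 3 (log2 difference -0.20, limma adjusted p = 0.821), with -0.43 and all pairs lower for its other probe set. As deposited, the first of these was higher in KO in pair 2, at a ratio of 1.08. Of 8 measured partners and targets of ChREBP, 3 were lower and 1 was higher in every pair, with a median of -0.12. Pnpla3, a lipid droplet protein whose gene ChREBP and SREBP-1 activate, read 3.66, 20.7 and 16.3 in KO 1 to 3, against 5.71, 39.2 and 31.6 in WT 1 to 3. KO was lower within each pair although pair 1 lay far below the others in both genotypes (log2 difference -0.84, limma adjusted p = 0.406). Besides Pnpla3 and Tkfc, the log2 difference was 1.32 for Pklr (pairs in both directions), 0.16 for Khk (higher in every pair) and 0.07 for Txnip. It was -0.37 for Mlxip (lower in every pair), -0.13 for Arrdc4 and -0.10 for Mlx. Tkfc, a kinase of fructose breakdown, was 1 of the 3 lower genes and dim, at 0.479, 1.24 and 0.431 in KO 1 to 3, against 1.62, 1.90 and 1.30 in WT 1 to 3. It passed the filter only through WT (means of 0.718 in KO and 1.61 in WT), which favours a lower signal in KO. Nothing is read from its difference, or from its share in the count and median of the list.

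Of 14 measured genes that control the carboxylases or break down malonyl-CoA, 5 were lower in KO in every pair and 1 was higher, with a median of -0.18. Mid1ip1, whose protein binds acetyl-CoA carboxylase and promotes its active polymer, read 10.5, 35.7 and 34.0 in KO 1 to 3, against 19.9, 76.2 and 49.9 in WT 1 to 3 (log2 difference -0.85, limma adjusted p = 0.406). Prkag2, a regulatory subunit of the AMP-activated kinase that inhibits the carboxylases, read 25.7, 38.7 and 39.2 in KO 1 to 3, against 20.9, 11.6 and 28.2 in WT 1 to 3 (log2 difference 0.84, limma adjusted p = 0.547, and 0.68 and 1.06 for its other probe sets). Its KO to WT ratio was 1.23, 3.34 and 1.39 in pairs 1 to 3, and the log2 difference was 0.39 without pair 2. In mitochondrial fatty acid synthesis, to which Mcat belongs, 4 of 8 measured genes were lower in every pair and 1 was higher, with a median of -0.29. Lipt1, a lipoyl transferase, read 5.42, 8.66 and 7.90 in KO 1 to 3, against 9.68, 15.6 and 8.68 in WT 1 to 3 (log2 difference -0.61, limma adjusted p = 0.546). Mecr, the reductase of the last step of the cycle, read 46.9, 33.4 and 38.6 in KO 1 to 3, against 62.7, 58.3 and 46.4 in WT 1 to 3 (log2 difference -0.49, limma adjusted p = 0.583, and -0.56 for its other probe set). For comparison with these list counts, 2195 of all 11140 genes tested were lower and 1214 higher in KO in every pair.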

How the data were processed

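Total RNA from BAT of 3 KO and 3 WT mice had been hybridised to mouse genome arrays, 1 per animal. As deposited by the authors, each probe set had 1 linear signal intensity from GCOS, with version and scaling not given in the sources used here. Control probe sets (64) were set aside. Each intensity was divided by its array median, as the methods of the study do, raised to a floor of 0.25 and put on a log2 scale, and probe sets with a mean above 1 were tested. Platform annotation gave 34945 probe sets 1 gene symbol, of which 34741 matched the GRCm38.p6 gene table, while 932 had several symbols and 9160 were not listed.

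The model had a term for genotype and a term for the pair, and was fitted by lmFit and eBayes of limma 3.58.1 (R 4.3.3), with p-values adjusted by Benjamini-Hochberg and a threshold of 0.05. The fit was also run on simulated data with planted changes. Their recovery is not given here, and nothing is concluded from it. The numbers pair the arrays because the series describes the animals as littermates. The correlation of KO and WT deviations from their group means was 0.446 in pair 1, 0.0847 in pair 2 and 0.160 in pair 3, and -0.359 to 0.281 between arrays of different pairs, where KO 2 with WT 3 exceeded pairs 2 and 3.

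The 10 genes, the 6 pathway lists and the marker lists were chosen with earlier results of these data known. All 10 genes were named. From each pathway list, the text names genes that passed the test and otherwise the 2 largest differences among genes that moved 1 way in all pairs, and 5 further genes were named by correlation with the average of the 10. Where fewer than 2 genes of a list moved so, fewer are named. Alternatives were the deposited scale and quantile normalization, other floors and filters, a pseudocount, limma with trend and robust prior, a fit that ignored pairs, the mean over probe sets, and each pair left out. The counts without pair 2 and the alternatives for genes outside the 10 were added after seeing the data. The remaining genes of the ChREBP list were also named after seeing the data, and no alternatives are given for them.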

Additional observations from a re-analysis of the deposited data

How the results depend on the processing

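Direction and side of the threshold were unchanged in 204 values of single lipogenesis probe sets under the alternatives. This count includes settings in which the direction could not turn. The other floors and filters, the trend and robust prior and the fit that ignored pairs left each of these differences as it was. Under those settings only the side of the threshold was checked. The number of lipogenesis probe sets past an adjusted p of 0.05 was 0 in the reported limma fit and 1 with a pseudocount of 1 in place of the floor (Acly 1425326_at, adjusted p = 0.0395). It was 5 with an intensity trend and robust prior, namely Acly 1425326_at (adjusted p = 0.00301), Mlxipl (0.00835), Acaca 1434185_at (0.0100) and Acss2 1422479_at (0.0254) and 1446542_at (0.0414). Over all alternatives, adjusted p-values of the lipogenesis probe sets ran from 0.00301 to 1. Over all probe sets the count was 0 (lowest adjusted p 0.117, with 1911 at an unadjusted p under 0.05), 123 with the pseudocount, 40 with a filter at a mean above 2, 311 with the trend and robust prior, and 0 to 255 with 1 pair left out, the 255 being without pair 1. The cause was not tested. The lipogenesis count stayed at 0 with each pair left out. Lipogenesis genes lower in all pairs numbered 5 in the reported fit, where 2195 of all 11140 genes tested were lower. They numbered 7 in the signals as deposited (Fasn and Acacb added) and 6 after quantile normalization (Fasn added). With 1 pair left out they numbered 5 to 8, the 8 being without pair 3, where only 2 pairs had to agree. The matching count of all genes was not made under these settings, so nothing is read from the rise. Over all tested probe sets, the share lower in every pair was 18.4% in the reported fit and 24.8% without pair 2. The median difference of the lipogenesis genes was -0.45, and ran from -0.66 to -0.32 with 1 pair left out. Without the replicate block both counts of passing probe sets were 0, so the block changed no call. The median of -0.45 and the 5 genes lower in all pairs cannot change with the block in this balanced design, and they do not check it. Signs turned in 5 values, all of probe sets whose reported difference lay between -0.13 and 0.02. These were Acaca 1427595_at (-0.418 to 0.045 with 1 pair left out), Thrsp 1424737_at (-0.249 to 0.028), Thrsp 1444166_at (-0.364 to 0.329, and 0.035 as deposited) and Mcat (-0.119 to 0.107). Thrsp 1444166_at and Tkfc gave no value with the filter above 2. Of the values of genes outside the 10 that were named by rule, 185 kept direction and side of the threshold. The other 6 passed it (Scd2 with the pseudocount, and Pgd, Aacs, Pnpla3, Mid1ip1 and Lgals12 with the trend and robust prior). Here too, the other filters, the prior and the fit that ignored pairs could not turn a direction.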

Other observations

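The white adipocyte markers moved apart from each other. Of the 4 measured, leptin (Lep) read 0.838, 4.76 and 2.64 in KO 1 to 3, against 2.73, 19.6 and 14.4 in WT 1 to 3, and Nnat and Sncg were also lower in KO in every pair. Resistin (Retn) read 80.2, 57.6 and 44.6 in KO 1 to 3, against 29.5, 37.3 and 26.2 in WT 1 to 3. Ppargc1a, a coactivator of thermogenic genes, was high in pair 1 of both genotypes, at 111 in KO 1 and 72.7 in WT 1 against 9.88 to 12.2 on the other 4 arrays.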
